A study of Mus musculus with 33 samples.

Results

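The Wnt ligands, their receptors and co-receptors, the R-spondins with their Lgr receptors, the secreted Wnt antagonists and a few feedback and nuclear genes of the pathway were followed through sorted mammary epithelial cells of mouse tumors and tumor-free glands. The members were chosen by gene symbol, namely all Wnt, Fzd, Sfrp, Dkk and Rspo genes of the count table together with Lrp5, Lrp6, Lgr4, Lgr5, Lgr6, Wif1, Notum, Axin2, Nkd1, Lef1 and Tcf7. This gave 52 genes out of 55487 gene rows, and all 52 were among the 36527 genes that entered the tests because they had at least 10 reads summed over the libraries. They comprise 19 Wnt ligands, 12 receptors or co-receptors, 7 R-spondin or Lgr genes, 10 secreted antagonists and 4 feedback or nuclear genes.

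Wnt proteins are secreted lipid-modified ligands. A Wnt that binds a Frizzled receptor (Fzd genes) together with the co-receptors Lrp5 or Lrp6 stabilizes beta-catenin, which then activates target genes with Tcf and Lef factors, and other Wnts, Wnt5a being the best known, act mainly without beta-catenin. R-spondins bound to Lgr4, Lgr5 or Lgr6 keep Frizzled receptors at the cell surface, whereas Sfrp proteins and Wif1 bind Wnts, Dkk proteins act on Lrp5 and Lrp6, and Notum removes the lipid from the ligand. In the mammary gland, Wnt4 is made by hormone-responsive luminal cells and Rspo1 acts with it on basal stem cells, and the MMTV-driven Wnt1 transgene is a classical cause of mouse mammary tumors.

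RNAseq data came from mammary cells of 33 mice, each mouse giving 1 library. Tumor mice bore MMTV-PyMT, an oncogene expressed in mammary epithelium, which tumor-free mice lacked. All mice carried MMTV-Cre and the mT/mG reporter, in which Cre switches a red label to GFP, on an FVB background. In PTHrP KO mice (genotype Pthrpflox/flox) the same Cre deletes loxP-flanked sequence of Pthlh, which encodes parathyroid hormone-related protein, and PTHrP WT mice were Pthrpwt/wt. Among WT mice there were 3 tumors for each of weeks 6, 8 and 10 of age and 1 tumor of week 12, besides 2 tumor-free glands for each of weeks 6, 8, 10 and 12. Among KO mice there were 3 tumors and 2 tumor-free glands for each of weeks 8, 10 and 12. The study matched hyperplasia, adenoma and carcinoma to weeks 6, 8 and 10 in WT mice and to weeks 8, 10 and 12 in KO mice. Recombination and PyMT expression are limited to cells in which the MMTV promoter is active, and sorting for GFP followed a brief culture in serum, so ligands made by stroma are seen only as far as stromal cells passed the gate.

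Values are deposited read counts scaled to CPM, counts scaled by TMM library size to a common total. A member counted as higher or lower if it changed more than 1.5-fold with an adjusted p below 0.1 in the quasi-likelihood test of edgeR, after Benjamini-Hochberg adjustment across all 36527 genes. Averages over weeks used weeks 6, 8 and 10 in WT mice and weeks 8, 10 and 12 in KO mice, so the ages behind the WT and KO averages differ. Ranges given for WT glands and WT tumors cover weeks 6 to 10 unless another week is named, that is 6 glands and 9 tumors, and those for KO mice cover weeks 8 to 12, likewise 6 glands and 9 tumors. The WT tumor of week 12 has no replicate and entered no comparison, and the WT glands of week 12 entered only those between glands.

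Libraries held 28419983 to 130981596 counted reads, and 4 KO libraries had over 5% of reads on rRNA genes, against at most 0.447% in any WT library. Pthlh itself did not separate the genotypes (1.35 to 2.29 CPM in KO tumors, 1.46 to 6.67 in WT tumors, 2.79 to 8.52 in KO glands and 2.93 to 7.13 in WT glands), and since counts cover the whole gene and not the deleted part this does not check the labels. As the labelled mammary epithelium should, all libraries held luminal markers, whose 10 genes summed to 4448 to 9107 CPM over all libraries of tumors and 5325 to 9441 over glands. Most of this sum was Krt8 and Krt18, keratins of all luminal cells, with medians of 3469 and 3161 CPM over all WT tumors, week 12 included, and it says little of the luminal subtypes, whose markers moved apart. Pgr, Foxa1 and Esr1, genes of hormone-sensing luminal cells, and Krt19 were lower in tumors of both genotypes, while Elf5 and Csn3, genes of the secretory luminal lineage, were higher in both. The 10 basal or myoepithelial markers (Krt5, Krt14, Krt17, Acta2, Myh11, Cnn1, Mylk, Tagln, Trp63 and Oxtr) were all lower in tumors of both genotypes. Their sum was 1770 to 3694 CPM in WT tumors against 5311 to 20766 CPM in WT glands, and 1612 to 5420 CPM in KO tumors against 5561 to 19725 CPM in KO glands. Each gland and tumor difference given for a Wnt gene therefore lies beside a loss of basal and of hormone-sensing luminal markers in the same libraries, whose part in it was not tested, and in such bulk samples fewer cells of a type and less RNA per cell cannot be told apart.

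Most of the Wnt signal came from a minority of the genes. Of the 52 members, 34 exceeded 100 reads in at least 1 library, and 14 never exceeded 12 reads in any library (Wnt2, Wnt2b, Wnt3, Wnt3a, Wnt8a, Wnt8b, Wnt9b, Wnt16, Dkk1, Dkk4, Sfrp4, Sfrp5, Rspo2 and Rspo4). For these 14 a difference was hard to detect at this depth. Wnt1, Lef1, Rspo3 and Fzd9 also stayed under 100 reads everywhere.

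Levels per kilobase (kb) divide CPM by the joined length of all annotated exons of a gene. On this scale Wnt7b and Wnt5b were the leading ligands in KO glands and in the tumors of both genotypes. In WT glands Wnt7b and Wnt11 came before Wnt5b. The median share of Wnt7b in the summed CPM per kb of all 19 Wnt ligands was 32.7% in WT glands, 36.1% in WT tumors, 27.1% in KO glands and 38.5% in KO tumors. Wnt5b held 13.2% in WT glands (11.6 to 15.9%, n = 6) and 40.8% in WT tumors (25.6 to 53.5%, n = 9), with 21.1% in KO glands (18 to 23.9%, n = 6) and 37.7% in KO tumors (28.5 to 43.6%, n = 9). The gland and tumor ranges of the Wnt5b share did not overlap in either genotype. Wnt11 went the other way, from 16.6% in WT glands to 3.21% in WT tumors. The sum over all ligands had medians of 159 and 126 CPM per kb in WT glands and tumors and of 140 and 121 in KO glands and tumors.

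Antagonist transcripts differed between glands and tumors in their median amount and make-up. Their summed level had a median of 98.9 CPM per kb in WT glands and 24.6 in WT tumors, and of 62.1 in KO glands and 28.7 in KO tumors. The WT ranges did not overlap, with 66.4 to 139 in glands and 15.7 to 38.7 in tumors. The KO ranges overlapped, with 23.4 to 112 in glands and 12.8 to 42.9 in tumors. Dkk3 held a median of 59.1% of it in WT glands and 70.2% in KO glands, and 27.3% in WT tumors and 20.8% in KO tumors. Its gland and tumor ranges overlapped in both genotypes. They were 33.8 to 79.8% in WT glands and 10.1 to 39.5% in WT tumors. In KO glands and tumors they were 60.7 to 80.4% and 13.6 to 62.1%. Sfrp1, at 4.77% in KO glands, reached 37.4% in KO tumors and also 37.4% in WT tumors. Its gland and tumor ranges did not overlap in either genotype. The 10 Frizzled genes summed to nearly the same level in all 4 sets, with medians of 105 to 112 CPM per kb, and Fzd7 led them in each with 26.2 to 28.1%.

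**Figure D1:**
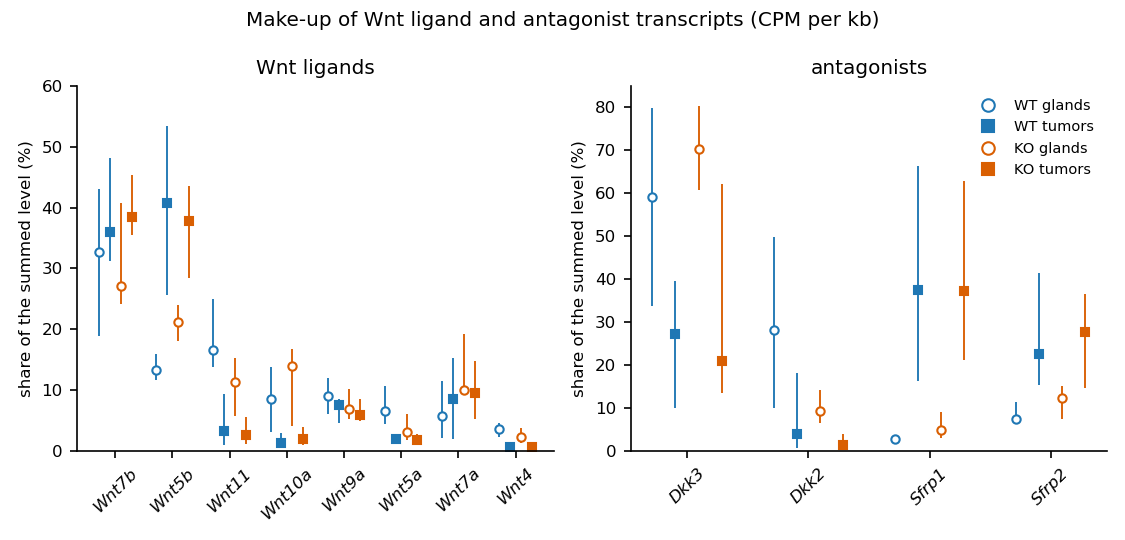
Share (%) of each gene in the summed CPM per kb of the Wnt ligands (left) and of the secreted antagonists (right), as the median (symbol) and the lowest to highest library (line) of WT glands and WT tumors of weeks 6 to 10 and KO glands and KO tumors of weeks 8 to 12. Wnt5b and Sfrp1 take larger median shares in tumors (squares) than in glands (circles), and Wnt11, Dkk2 and Dkk3 smaller ones. The ranges of Dkk3 overlap in both genotypes and those of Dkk2 in WT mice.

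To show where these genes start, promoter windows were read from RefSeq on GRCm38.p6, from 250 bases before to 50 bases after each start, and searched on both strands for CTTTGAT or CTTTGAA, the core letters bound by Tcf and Lef factors. Of the members, 34 of 52 matched the table, with 41 windows, and 3 of the 41 (7.32%) held the motif against 2842 of 32851 (8.65%) windows in the whole table. The windows of Wnt11, a ligand that was lower in tumors, of Wnt5b, a ligand that was higher, and of Axin2, a feedback gene often read as a measure of beta-catenin activity, are given as examples of members with opposite behavior. They lie at chr7:98834862-98835161 on the plus strand, chr6:119449337-119449636 on the minus strand (1 of 3 Wnt5b windows) and chr11:108920099-108920398 on the plus strand. Capitals mark the motif, which reads as its reverse complement in Wnt11, and the Axin2 window holds no match.
Wnt11: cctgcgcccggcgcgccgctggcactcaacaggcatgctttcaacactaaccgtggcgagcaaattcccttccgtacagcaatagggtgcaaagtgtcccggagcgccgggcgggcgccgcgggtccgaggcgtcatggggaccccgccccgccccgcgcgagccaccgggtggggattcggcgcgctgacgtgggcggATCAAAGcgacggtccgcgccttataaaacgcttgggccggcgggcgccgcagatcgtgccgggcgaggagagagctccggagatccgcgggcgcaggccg
Wnt5b: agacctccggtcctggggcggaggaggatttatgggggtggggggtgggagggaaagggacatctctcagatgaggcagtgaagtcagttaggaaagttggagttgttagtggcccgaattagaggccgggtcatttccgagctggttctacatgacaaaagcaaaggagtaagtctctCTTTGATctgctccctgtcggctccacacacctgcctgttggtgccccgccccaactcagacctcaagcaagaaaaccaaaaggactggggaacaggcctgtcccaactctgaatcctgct
Axin2: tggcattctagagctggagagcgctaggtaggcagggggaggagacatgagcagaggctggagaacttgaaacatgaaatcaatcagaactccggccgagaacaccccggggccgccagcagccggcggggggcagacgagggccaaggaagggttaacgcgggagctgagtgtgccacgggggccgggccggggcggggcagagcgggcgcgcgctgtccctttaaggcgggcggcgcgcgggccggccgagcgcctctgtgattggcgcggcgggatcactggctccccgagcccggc

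The first question was which members differ between tumors and glands. In PTHrP WT mice 4 members were higher and 19 lower in tumors (mean of weeks 6, 8 and 10), and in PTHrP KO mice 4 were higher and 14 lower (mean of weeks 8, 10 and 12). Over all genes 15.7% were called in WT mice, 6.21% higher and 9.53% lower, and 10.6% in KO mice, 5.16% higher and 5.44% lower. The median log2 fold change of the 52 members was -0.66 in WT mice, where that of all genes was 0.03, and -0.0046 in KO mice, where that of all genes was 0.09. With members at 3 reads or fewer per library in 1 tissue set to their bound, and those without a measurable direction left out, the median was -0.56 over 47 members in WT mice and -0.32 over 40 in KO mice. The WT and KO comparisons share no library. In both genotypes 13 members were lower (13 of the 19 in WT mice and of the 14 in KO mice) and 4 were higher, while 28 were called in neither. The share of all genes called alike in both genotypes was not counted, so these shared calls have no background beside them.

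**Figure D2:**
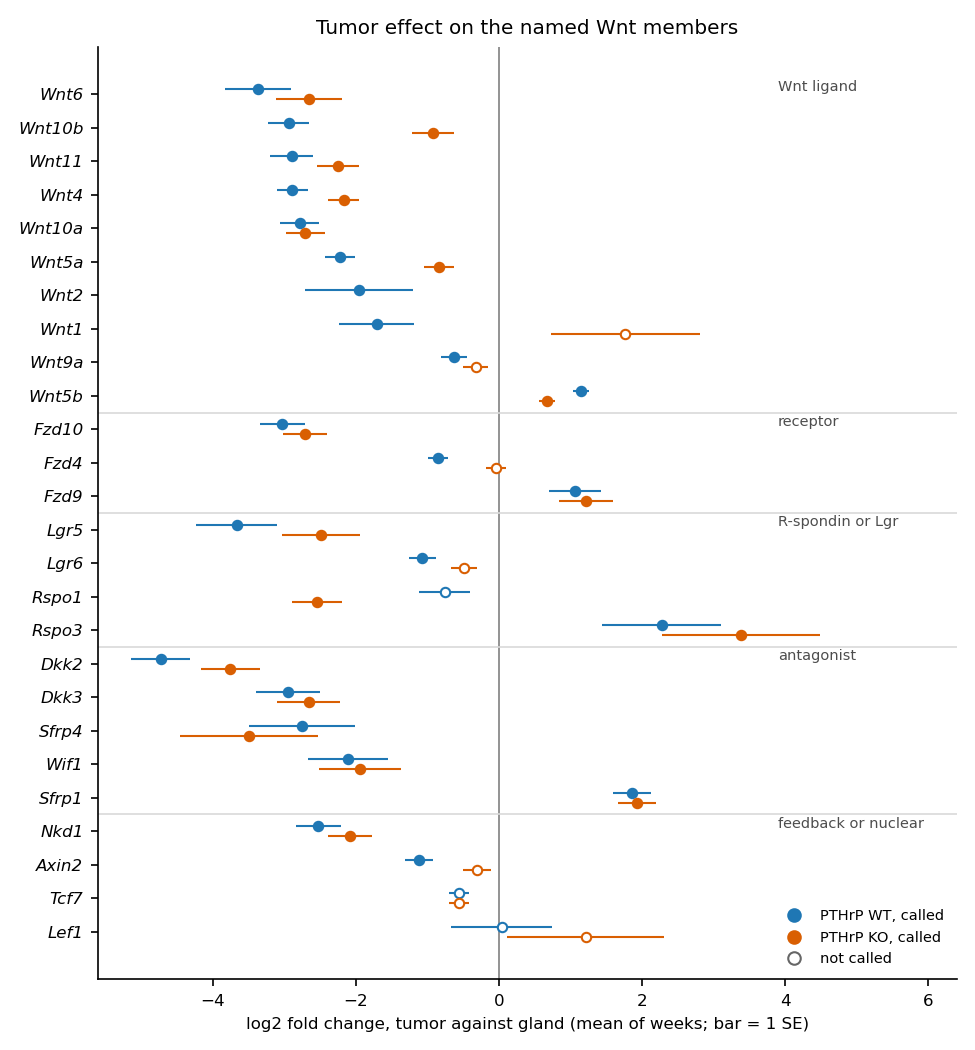
Log2 fold change of tumors against glands (x axis, bar = 1 SE) for the named members by role, averaged over weeks, with PTHrP WT in blue, PTHrP KO in orange and filled symbols for called members. Most points lie left of 0, down to -4.72 for Dkk2 in WT mice, and Wnt5b, Fzd9, Rspo3 and Sfrp1 lie right of it in both genotypes. The KO point of Wnt2 is left out because its glands held 1 read in all, and the values of Wnt2, Sfrp4 and Wnt1 rest on few reads.

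Among the 19 Wnt ligands, 9 were lower and 1 was higher in WT tumors, and 6 were lower and 1 higher in KO tumors. Wnt4, the ligand of hormone-responsive luminal cells, had 16.7, 23.1 and 29.98 CPM (lowest, median and highest) in WT glands and 1.2, 3.42 and 4.83 CPM in WT tumors. In KO mice it had 8.03, 12.9 and 23.3 CPM in glands and 1.56, 3.10 and 4.47 CPM in tumors. Every tumor lay below every gland of its genotype. The log2 fold change was -2.89 ± 0.22 (SE, edgeR adjusted p = 1.1e-09) in WT mice and -2.17 ± 0.22 (edgeR adjusted p = 1.6e-07) in KO mice. The markers of hormone-sensing luminal cells moved with it. Pgr, the progesterone receptor, had a median of 31.4 CPM over all WT glands and 1.15 over all WT tumors, week 12 included, and of 8.77 CPM in KO glands and 0.678 in KO tumors (-5.47 ± 0.50 and -4.25 ± 0.49). Foxa1, a partner of the estrogen receptor, had medians of 26.6 and 1.5 CPM over the same WT glands and tumors and of 14.2 and 1.71 CPM in KO glands and tumors (-3.93 ± 0.30 and -3.25 ± 0.29). The groups of both genes were separate in each genotype, and their part in the Wnt4 difference was not tested.

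Wnt10a and Wnt6 are neighbors on chromosome 1, with 6193 bases between them, and Wnt10b and Wnt1 are neighbors on chromosome 15, with 11706 bases between them. Wnt10a, a ligand of the beta-catenin branch, had 12.1 to 54.3 CPM in WT glands and 2.48 to 9.95 CPM in WT tumors, and 12.1 to 61.5 CPM in KO glands and 2.66 to 10.9 CPM in KO tumors. Its groups did not overlap in either genotype, with log2 fold changes of -2.78 ± 0.28 in WT mice and -2.70 ± 0.27 in KO mice. Wnt6 had few reads (0.330 to 1.98 CPM in WT glands and 0 to 0.307 CPM in WT tumors) and fell by 3.37 ± 0.46 on the log2 scale in WT mice and by 2.65 ± 0.47 in KO mice, where the groups overlapped (0.246 to 1.84 CPM in glands, 0.0574 to 0.264 in tumors).

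Wnt11, a ligand with roles in epithelial branching that acts largely outside the beta-catenin branch, had the largest share of the ligand level per kb in WT glands among the ligands that fell. It had 84.1, 107 and 166 CPM in WT glands and 4.65, 16.3 and 52.8 CPM in WT tumors, and 35.1, 62.0 and 89.3 CPM in KO glands and 5.72, 12.6 and 26.6 CPM in KO tumors. The groups were separate in both genotypes, with log2 fold changes of -2.90 ± 0.29 and -2.25 ± 0.29. The promoter window of Wnt11 printed above spans the first of its 2 starts.

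Wnt5a and Wnt10b fell in both genotypes, with larger point estimates in WT mice. Wnt5a, which acts mainly without beta-catenin and restrains duct growth in the gland, had 57.8, 82.9 and 114 CPM in WT glands and 11, 18.8 and 24.1 CPM in WT tumors. In KO mice it had 19.8, 32.9 and 55.8 CPM in glands and 10.27, 17.3 and 25.8 CPM in tumors. The tumors of both genotypes thus covered nearly the same range, the WT groups were separate, and the KO groups overlapped. The log2 fold change was -2.22 ± 0.21 (edgeR adjusted p = 1.9e-08) in WT mice and -0.83 ± 0.21 (edgeR adjusted p = 0.0061) in KO mice.

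Wnt10b, a ligand that drives beta-catenin signaling in mammary epithelium, had 4.91, 7.65 and 17.1 CPM in WT glands and 0.307, 1.11 and 2.96 CPM in WT tumors. It had 1.08, 1.45 and 2.47 CPM in KO glands and 0.611, 0.768 and 1.36 CPM in KO tumors. The WT groups were separate and the KO groups overlapped. The WT glands of week 12, outside the average, had 1.78 and 2.43 CPM, both within the WT tumor range. The log2 fold change was -2.94 ± 0.28 (edgeR adjusted p = 2.8e-08) in WT mice and -0.92 ± 0.29 (edgeR adjusted p = 0.035) in KO mice, and the latter call was lost without the first KO gland of week 8 (-0.81), the second of week 10 (-0.77) or the first of week 12 (-0.83), with adjusted p = 0.13, 0.14 and 0.11.

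**Figure D3:**
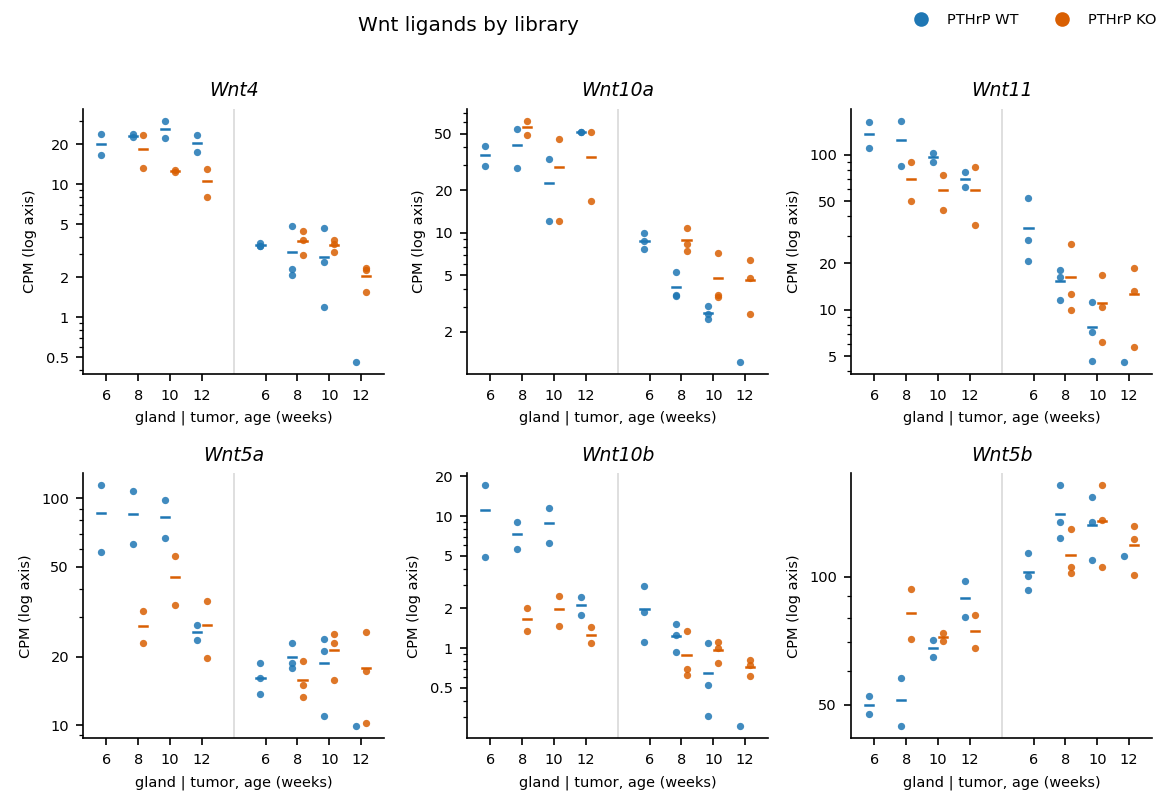
CPM (log axis) of 6 Wnt ligands in each library by tissue and age in weeks, with PTHrP WT in blue, PTHrP KO in orange and a bar at the mean of each group. Wnt4, Wnt10a and Wnt11 lie lower in the tumors of both genotypes, Wnt5a and Wnt10b are highest in WT glands of weeks 6 to 10, and Wnt5b lies higher in tumors.

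The ligand that rose was Wnt5b, a close relative of Wnt5a. It had 44.4, 55.1 and 71.0 CPM in WT glands and 92.7, 123 and 164 CPM in WT tumors, and 67.9, 72.4 and 93.4 CPM in KO glands and 100.7, 123 and 164 CPM in KO tumors. Every tumor lay above every gland of its genotype at these ages. Of the WT glands of week 12, which entered neither average, 1 reached the range of the WT tumors at 97.8 CPM and the other, at 80.4 CPM, lay below every tumor. The log2 fold change was 1.15 ± 0.11 (edgeR adjusted p = 2.8e-08) in WT mice and 0.67 ± 0.11 (edgeR adjusted p = 7e-05) in KO mice.

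The remaining ligand calls were made in WT mice. Wnt9a, the neighbor of Wnt3a on chromosome 11 at 16175 bases, had 31.5 to 63.7 CPM in WT glands and 16.4 to 35.3 CPM in WT tumors, a log2 fold change of -0.63 ± 0.18 (edgeR adjusted p = 0.012). It fell under the fold threshold without the first WT gland of week 8 (-0.43) or of week 10 (-0.52) or the first WT tumor of week 10 (-0.55). Wnt1 had 105 reads over the 6 WT glands and 51 over the 9 WT tumors (-1.71 ± 0.52, edgeR adjusted p = 0.022), and leaving out the second WT gland of week 8 turned its value to 0.56 (adjusted p = 0.71), while without the second WT gland of week 6 or of week 10 it was no longer called. The second WT gland of week 8 stood apart in its fibroblast markers, 10 genes that summed to 797 CPM there and to 35.4 to 257 CPM in the other 5 WT glands, and their part in the Wnt1 and Wnt2 differences was not tested. Wnt2 had 30 reads in WT glands and 11 in WT tumors, which gives a ratio of 0.254 per read sequenced with a 95% counting interval of 0.115 to 0.522. The calls of Wnt1 and Wnt2 rest on these few reads, and Wnt2 was not called under 17 of 26 other settings, 11 of them without 1 library, where its value reached -0.23 without the second WT gland of week 8.

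Wnt7b, the ligand with the largest share per kb in glands, was called in neither genotype. It had 148 to 331 CPM in WT glands and 178 to 297 CPM in WT tumors, with log2 fold changes of -0.05 ± 0.12 in WT mice and 0.21 ± 0.12 in KO mice. Wnt7a had 8.75 to 62.3 CPM in WT glands and 6.41 to 61.3 CPM in WT tumors and was not called either (0.10 ± 0.34 in WT mice and -0.49 ± 0.33 in KO mice).

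Of the 12 receptors and co-receptors, 1 was higher and 2 were lower in WT tumors, and 1 was higher and 1 lower in KO tumors, with median log2 fold changes of -0.09 and 0.02. Fzd10 had 1.88 to 7.12 CPM in WT glands and 0.142 to 0.968 CPM in WT tumors, and 2.36 to 7.49 CPM in KO glands and 0.169 to 1.01 CPM in KO tumors. The groups were separate in both genotypes, with log2 fold changes of -3.02 ± 0.31 and -2.71 ± 0.31. Fzd9 went up from few reads, with 0.178 to 0.354 CPM in WT glands and 0.142 to 0.749 CPM in WT tumors, and its groups overlapped in both genotypes (1.06 ± 0.36 with edgeR adjusted p = 0.043 in WT mice, and 1.22 ± 0.38 with edgeR adjusted p = 0.031 in KO mice). The WT call of Fzd9 was lost without the second WT gland of week 6 (1.03) or of week 8 (0.94) or the first WT tumor of week 10 (0.83), and the KO call without the first KO gland of week 10 (1.01). Fzd4, which also binds the non-Wnt ligand norrin, was called in WT mice, from 9.90 to 27.5 CPM in glands to 8.22 to 11.3 CPM in tumors (-0.85 ± 0.14, edgeR adjusted p = 4.9e-05), while the KO value was -0.04 ± 0.14.

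The receptors that held most of the Frizzled and Lrp transcripts were not called. Fzd7 had log2 fold changes of -0.07 ± 0.17 in WT mice and 0.02 ± 0.17 in KO mice, and Lrp5 of -0.12 ± 0.06 and -0.01 ± 0.06. Lrp6 had 0.18 ± 0.10 in WT mice and 0.35 ± 0.10 in KO mice, and the latter passed the p threshold (edgeR adjusted p = 0.023) without reaching a fold of 1.5. Fzd2 likewise passed the p threshold in both genotypes below that fold, at -0.56 ± 0.13 in each, and as it lay so near that fold it was called under 4 of 26 other settings in WT mice and 6 in KO mice.

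In the R-spondin and Lgr group, 1 was higher and 2 were lower in the tumors of each genotype, and the lower genes were Lgr5 and Lgr6 in WT mice and Lgr5 and Rspo1 in KO mice. Lgr5, a stem cell receptor of R-spondins and itself a common beta-catenin target, had 4.85, 10.03 and 20.47 CPM in WT glands and 0.119, 0.675 and 2.86 CPM in WT tumors, and 2.17, 7.59 and 16.3 CPM in KO glands and 0.146, 1.18 and 3.25 CPM in KO tumors. The WT groups were separate and the KO groups overlapped. The log2 fold change was -3.66 ± 0.56 (edgeR adjusted p = 2.4e-05) in WT mice and -2.48 ± 0.54 (edgeR adjusted p = 0.002) in KO mice.

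Lgr6, another receptor of the family, had 54.3, 73.6 and 91.3 CPM in WT glands and 23.0, 33.4 and 53.6 CPM in WT tumors. It had 54.8, 80.9 and 114 CPM in KO glands and 28.7, 49.99 and 95.5 CPM in KO tumors. The WT groups were separate (-1.07 ± 0.18, edgeR adjusted p = 9.8e-05), and the KO groups overlapped, with -0.49 ± 0.18 below the fold threshold, which it passed without the first KO gland of week 10 or the second KO tumor of week 12 (-0.62 in each). Lgr4 had 102 to 313 CPM in WT tumors and 94.0 to 203 CPM in KO tumors, and its log2 values of 0.48 ± 0.19 and 0.58 ± 0.19 stayed just under the fold threshold. It was called higher under 1 of 26 other settings in WT mice and under 8 in KO mice, 6 of them without 1 library, where its value reached 0.84 without the first KO gland of week 12.

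Rspo1, the R-spondin that acts with Wnt4 in the gland, had 1.69, 2.46 and 4.58 CPM in KO glands and 0.189, 0.472 and 0.820 CPM in KO tumors, and every KO tumor lay below every KO gland (-2.54 ± 0.35, edgeR adjusted p = 7.8e-06). In WT mice it had 0.243, 0.710 and 3.70 CPM in glands and 0.188, 0.567 and 0.898 CPM in tumors, which overlapped (-0.75 ± 0.36, edgeR adjusted p = 0.16), and it was called without the second WT gland of week 8 (-0.99) or the third WT tumor of week 6 (-0.95). The WT glands differed among themselves by age, week 10 lying above weeks 6 and 8. Rspo3 was called higher in both genotypes from very few reads, with 15 reads over the 6 WT glands against 113 over the 9 WT tumors and 10 against 130 in KO mice (2.27 ± 0.83 with edgeR adjusted p = 0.06, and 3.39 ± 1.10 with edgeR adjusted p = 0.04). Its groups overlapped in both genotypes, and the WT call was lost under 9 of 26 other settings (1.44 to 2.09 without 1 of 6 libraries) and the KO call without the first KO gland of week 8 (3.16) or the second of week 10 (3.39).

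Of the 10 secreted antagonists, 4 were lower and 1 was higher in the tumors of each genotype. Dkk2, an inhibitor at Lrp5 and Lrp6, had the largest called difference of all 52 members in WT mice. It had 51.6, 96.8 and 162 CPM in WT glands and 0.685, 3.42 and 19.5 CPM in WT tumors, and 10.5, 24.4 and 32.2 CPM in KO glands and 0.528, 2.22 and 2.77 CPM in KO tumors. The groups were separate in both genotypes, with log2 fold changes of -4.72 ± 0.41 (edgeR adjusted p = 6.5e-09) and -3.75 ± 0.41 (edgeR adjusted p = 3.9e-07).

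Dkk3, a family member that is not a clear Wnt inhibitor, was the leading antagonist per kb in glands. It had 75.3, 179 and 373 CPM in WT glands and 5.31, 25.4 and 38.7 CPM in WT tumors (-2.95 ± 0.44), and the groups were separate. In KO mice it had 47.8 to 302 CPM in glands and 11.2 to 89.5 CPM in tumors, which overlapped (-2.65 ± 0.44). Wif1, a secreted protein that binds Wnts, had 0.95 to 7.28 CPM in WT glands and 0.0709 to 2.88 CPM in WT tumors (-2.10 ± 0.56) and 1.08 to 3.49 against 0.160 to 1.39 CPM in KO mice (-1.94 ± 0.57), with overlap in both. Without the first KO gland of week 12 the KO value of Wif1 was -1.56 and no longer called.

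Sfrp4 was near the detection limit, with 43 reads in WT glands against 9 in WT tumors, a ratio of 0.145 per read sequenced (95% counting interval 0.0622 to 0.302), and 22 against 5 in KO mice, a ratio of 0.0913 (0.0270 to 0.247). Its KO call was lost without the first KO gland of week 8, when the fitted value was -1.76.

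The antagonist that rose was Sfrp1, a Frizzled-like protein that binds Wnts. It had 8.53, 12.1 and 15.4 CPM in WT glands and 20.8, 44.4 and 85.8 CPM in WT tumors, and 9.21, 12.34 and 17.7 CPM in KO glands and 19.1, 39.7 and 94.8 CPM in KO tumors. Every tumor lay above every gland of its genotype, with log2 fold changes of 1.86 ± 0.27 (edgeR adjusted p = 9.5e-06) and 1.93 ± 0.27 (edgeR adjusted p = 1.1e-05). Sfrp2, its relative, had 13.9 to 20.47 CPM in WT glands and 7.10 to 29.7 CPM in WT tumors and was not called (-0.20 ± 0.27 in WT mice and 0.04 ± 0.28 in KO mice). Notum was not called either (0.71 ± 0.53 and 0.78 ± 0.53), from 0.0453 to 0.508 CPM in WT glands.

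Of the 4 feedback and nuclear genes, 2 were lower in WT tumors and 1 in KO tumors. Nkd1, an inhibitor of Dishevelled that beta-catenin signaling induces, had 1.55 to 5.87 CPM in WT glands and 0.235 to 1.02 CPM in WT tumors, and 1.77 to 6.54 CPM in KO glands and 0.507 to 1.65 CPM in KO tumors. The groups were separate in both genotypes, with log2 fold changes of -2.52 ± 0.31 and -2.08 ± 0.31. Axin2, a scaffold of beta-catenin destruction and a common target gene, had 4.5, 6.93 and 10.2 CPM in WT glands and 1.72, 3.26 and 4.45 CPM in WT tumors, which were separate (-1.12 ± 0.20, edgeR adjusted p = 0.00013). In KO mice it had 2.91, 6.43 and 9.58 CPM in glands and 3.31, 4.51 and 8.20 CPM in tumors, which overlapped (-0.31 ± 0.20, edgeR adjusted p = 0.4). Tcf7, a nuclear partner of beta-catenin, had -0.55 ± 0.14 and -0.56 ± 0.14, just below the fold threshold in each genotype though past that of p, and was called under 5 of 26 other settings in each. Lef1 had at most 13 reads in any gland or tumor compared.

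**Figure D4:**
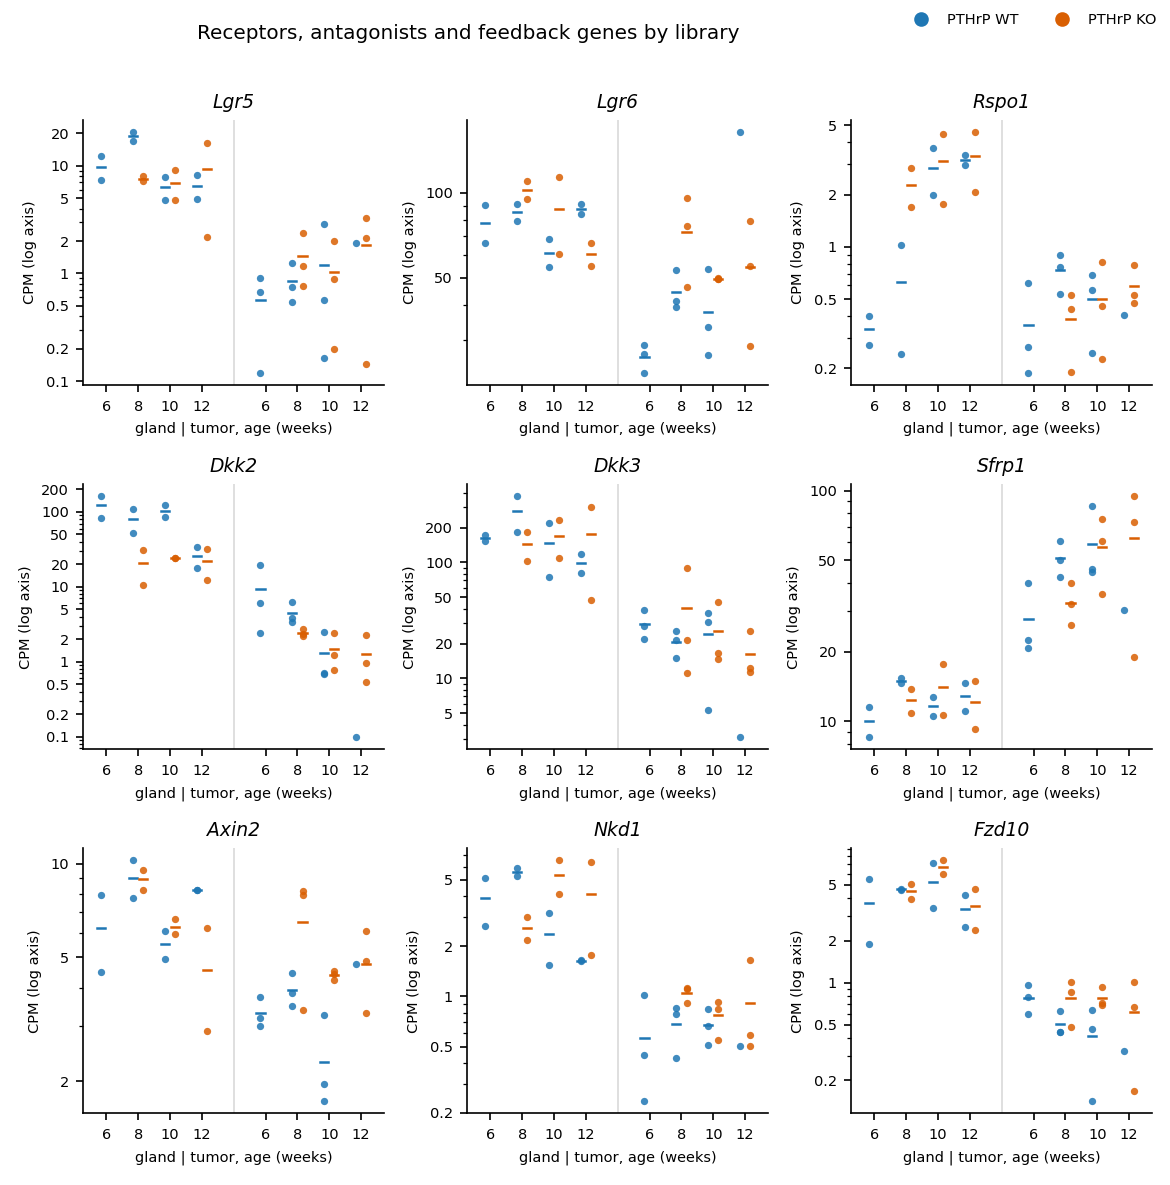
CPM (log axis) of 9 receptors, R-spondins, antagonists and feedback genes in each library by tissue and age in weeks, with PTHrP WT in blue, PTHrP KO in orange and a bar at the mean of each group. Lgr5, Dkk2, Dkk3, Nkd1 and Fzd10 lie lower and Sfrp1 higher in tumors, Rspo1 is near tumor levels in WT glands of week 6, and the WT tumor of week 12 has the highest Lgr6 of all libraries at 164 CPM.

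The WT tumor of week 12 had 9 members above all 8 WT glands and 18 below them, where 17.6% and 11.7% of all genes lay above and below. Against the 9 other WT tumors 10 members lay above and 12 below, where 15.3% and 7.74% of all genes did. The number of members lying above was thus near the background in each case, whereas the number lying below exceeded it.

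The single ages gave smaller sets. These comparisons use 3 tumors against 2 glands and share their libraries with the averages above. A fit without 1 gland leaves 1 gland of that age, so the spread then comes from the other conditions. In WT mice 2 members were higher and 15 lower at week 6, 2 and 16 at week 8, and 2 and 13 at week 10, where 5.86%, 9.19% and 6.13% of all genes were called. In KO mice 7 members were lower and 0 higher at week 8, 2 higher and 10 lower at week 10, and 2 higher and 9 lower at week 12, where 2.49%, 5.66% and 6.11% of all genes were called. Wnt4, Wnt10a, Wnt11, Dkk2 and Fzd10 were lower in all 6 of these comparisons, and Dkk3 and Nkd1 in 5. Wnt5b and Sfrp1 were higher in 5 of the 6. Several of these counts rest on single libraries. The 7 of KO week 8 fell to 0 without the first KO gland and to 4 without the second or without the second tumor, the 17 of WT week 6 fell to 8 to 14 without 1 library, and the 11 of KO week 12 fell to 7 without the first KO gland. With the groups compared fitted alone no member was called at KO week 12. Apart from that fit Wnt4 and Dkk2 lost a call without 1 library at KO week 8 alone, whereas Wnt10a, Wnt11 and Fzd10 lost calls at WT week 6 and at 1 or more of the KO ages besides.

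**Figure D5:**
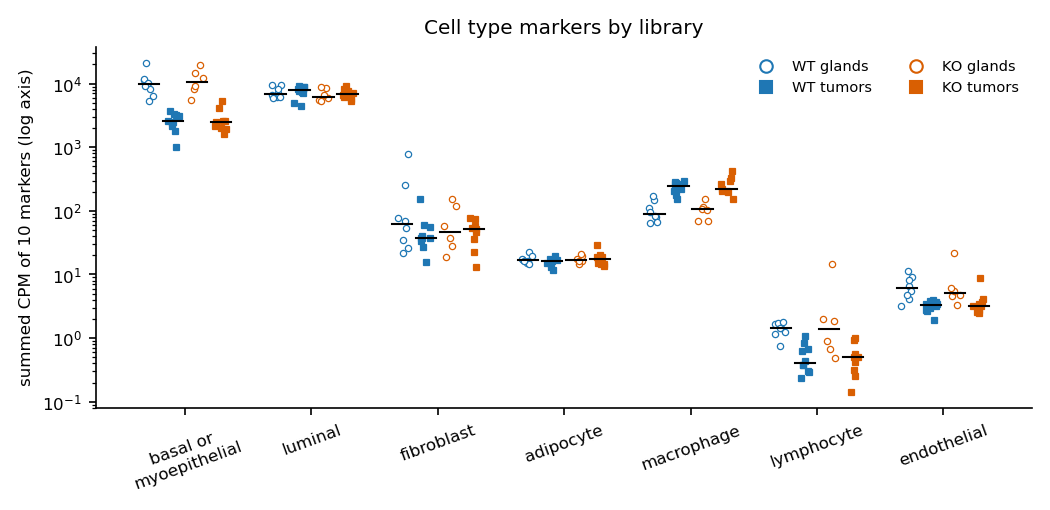
Summed CPM (log axis) of 10 marker genes of each of 7 cell types in every library, by genotype and tissue, with a line at the median. The basal or myoepithelial sum is lower in tumors, with medians of 2547 CPM in WT tumors and 9801 in WT glands and of 2513 CPM in KO tumors and 10692 in KO glands, and the macrophage sum, most of it Cd14, is higher in tumors.

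Markers of other cells moved with the tumor comparison as well. Of 10 fibroblast markers 7 were lower in WT tumors and 2 in KO tumors, with sums of 16 to 151 CPM in WT tumors, 35.4 to 797 in WT glands, 12.9 to 77 in KO tumors and 19.1 to 152 in KO glands. Lum and Dpt among them were at 0 in some libraries. The 10 macrophage markers had 1 higher and 3 lower in WT tumors and 3 higher in KO tumors, with sums of 151 to 293 CPM in tumors against 63.5 to 109 in glands in WT mice, which did not overlap, and 152 to 418 against 68.6 to 154 in KO mice, which did. The WT glands of week 12 had 149 and 172 CPM. C1qb was at 0 in some libraries of every set, week 12 included. Cd14 made up most of this sum, with medians of 66.3 CPM over all WT glands, 231 over all WT tumors, 89.8 in KO glands and 206 in KO tumors. Adgre1, Ptprc and Lyz2 were the markers lower in WT tumors, Csf1r and Cd68 were called in neither genotype, and C1qb and C1qc, each at under 1.4 CPM in every library, were the others higher in KO tumors.

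Of the 10 endothelial markers 6 were lower in the WT and 1 in the KO comparison, and their sum never exceeded 22.0 CPM in any library. The 10 lymphocyte markers, of which 2 were lower in each genotype, summed to at most 14.8 CPM, and Cd3e, Cd4, Cd8a and Nkg7 were at 0 in some libraries of every set. The 10 adipocyte markers summed to 11.7 to 29.4 CPM over all libraries, with 1 higher and 2 lower in WT tumors and 1 higher in KO tumors, and Adipoq, Cidec and Car3 were at 0 in some libraries of every set. Nearly all of that sum was Lipe (11.03 to 22.4 CPM), and its top value included Pparg at 15.5 CPM in 1 KO tumor, while the other 8 markers never exceeded 1.67 CPM, so the sum is no measure of adipocytes. Of the 10 luminal markers 2 were higher (Elf5 and Csn3) and 5 lower (Krt19, Prlr, Esr1, Pgr and Foxa1) in WT tumors, and 3 were higher (Cldn3 besides) and 4 lower (without Prlr) in KO tumors. The part of these cells in the Wnt differences was not tested.

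A fixed list of 65 other genes of the pathway had 5 higher and 10 lower in WT tumors and 6 higher and 8 lower in KO tumors, with median log2 fold changes of -0.13 and 0.03. Ror2, the receptor through which Wnt5a acts without beta-catenin, had the largest drop of the list in WT mice and fell by 3.88 ± 0.36 on the log2 scale in WT mice (mean 9.44 CPM in glands and 0.702 in tumors) and by 2.94 ± 0.35 in KO mice, with separate groups in both. Pygo1, a nuclear cofactor of beta-catenin, fell by 2.68 ± 0.37 and by 1.76 ± 0.38, and Daam2, a formin tied to Dishevelled, by 2.36 ± 0.35 and by 2.47 ± 0.35. Tnfrsf19, a receptor often used as a target of the pathway, rose in both genotypes (2.63 ± 0.36 and 2.18 ± 0.37). Kremen1 and Apcdd1, membrane proteins that dampen the pathway, and Draxin were lower in both as well.

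The next question was whether the tumor effect differs between PTHrP WT and KO mice. It was tested as the difference of the tumor effects at weeks 8 and 10, the ages that both genotypes share. With edgeR 0 of the 52 members were called, beside 0.00548% of all genes, while 9 members had an unadjusted p under 0.05, as had 5.58% of all genes, and DESeq2 called 1, Wnt10b, beside 0.203% of all genes. The difference for Wnt10b was -2.20 ± 0.50 (edgeR adjusted p = 0.32) and for Wnt5a it was -1.19 ± 0.36 (edgeR adjusted p = 0.77). For Axin2 it was -0.74 ± 0.34 (edgeR adjusted p = 0.89) and for Rspo1 1.44 ± 0.61 (edgeR adjusted p = 0.86). The members called in 1 genotype alone (Wnt1, Wnt2, Wnt9a, Fzd4, Lgr6 and Axin2 in WT mice, Rspo1 in KO mice) are therefore not shown to differ between the genotypes.

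Glands of both genotypes were compared directly over weeks 8, 10 and 12. Here 1 member was higher in WT glands, Wnt10b, where 0.906% of all genes were called, and 10 members had an unadjusted p under 0.05, as had 12.4% of all genes. Wnt10b was at 5.63 and 9.09 CPM in WT glands of week 8, at 6.21 and 11.6 at week 10 and at 1.78 and 2.43 at week 12. In KO glands it was at 1.35 and 2.00 CPM at week 8, at 1.47 and 2.47 at week 10 and at 1.08 and 1.44 at week 12. At weeks 8 and 10 every WT gland was above every KO gland, and at week 12 both WT glands were above both KO glands of that week.

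The log2 difference of Wnt10b, WT against KO, was 1.67 ± 0.32 (edgeR adjusted p = 0.018). The KO glands were also richer in rRNA (0.0224 to 18.8% of reads against 0.00296 to 0.261% in all 8 WT glands), and the call was lost with the rRNA share as a covariate (1.49, adjusted p = 0.17) and without the 4 libraries over 5% (1.41, adjusted p = 0.37). Dkk2, Wnt5a and Wnt4 had values of 1.42 ± 0.42, 0.81 ± 0.23 and 0.78 ± 0.24 (edgeR adjusted p = 0.13, 0.11 and 0.14), and DESeq2 called these 3 as well, where it called 2.03% of all genes. Without the first KO gland of week 12 all 3 were called too (1.70, 0.96 and 0.91). Of the 10 basal markers 0 were called between these glands, and of the 10 luminal markers 1 was, Csn3, which was lower in WT glands (-1.21 ± 0.30, edgeR adjusted p = 0.056). The hormone-sensing markers did not pass the test but had higher means in WT than in KO glands, 48.3 and 20.2 CPM for Pgr, 27.9 and 17.3 for Foxa1, 17.4 and 8.43 for Esr1 and 81.0 and 44.96 for Prlr, with log2 differences of 1.48 ± 0.49, 0.66 ± 0.31, 0.96 ± 0.35 and 0.94 ± 0.39. Their part in the differences of Wnt10b, Dkk2, Wnt5a and Wnt4 was not tested.

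Tumors of both genotypes were compared in 2 ways. At the same ages, weeks 8 and 10, edgeR called 0 members, beside 0.512% of all genes, with 4 at an unadjusted p under 0.05 (10.9% of all genes), and DESeq2 called Axin2 and Wnt10a, both lower in WT tumors, beside 1.82% of all genes. Axin2, at -0.82 ± 0.22 (edgeR adjusted p = 0.12), was also called without the first WT tumor of week 10 (-0.99) or the first KO tumor of week 8 (-0.98), the latter calling Lgr6 too (-0.67). With stages matched (weeks 6, 8 and 10 in WT against 8, 10 and 12 in KO mice) 2 members were lower in WT tumors, Axin2 and Lgr6, where 1.11% of all genes were called. Axin2 had 1.72, 3.26 and 4.45 CPM in WT tumors and 3.31, 4.51 and 8.20 CPM in KO tumors, and Lgr6 had 23.0, 33.4 and 53.6 CPM in WT tumors and 28.7, 49.99 and 95.5 CPM in KO tumors. The groups overlapped for both genes, and these are the tumor libraries already described.

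The log2 difference was -0.72 ± 0.18 (edgeR adjusted p = 0.043) for Axin2 and -0.72 ± 0.17 (edgeR adjusted p = 0.033) for Lgr6. Axin2 was no longer called without the first WT tumor of week 8 (adjusted p = 0.10) or without the second or the third KO tumor of week 8 (adjusted p = 0.12 in each). Of the 65 other pathway genes 4 were lower in WT tumors in this comparison, namely Tcf7l1, Tcf7l2, Bcl9 and Sox9. Dkk2, at 1.19 ± 0.37 (edgeR adjusted p = 0.13), was called higher in WT tumors under 7 of 29 other settings, 4 of them without 1 library (1.29 to 1.43).

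With 2 or 3 mice at each age, edgeR called few members by age. Between weeks 6 and 10 of WT tumors edgeR called 0 members, beside 0.011% of all genes, with 12 at an unadjusted p under 0.05 (8.55% of all genes), and DESeq2 called 4, all lower at week 10, beside 0.693% of all genes. These were Wnt11 (20.48, 28.1 and 52.8 CPM at week 6 and 4.65, 7.22 and 11.2 CPM at week 10, which did not overlap), Wnt10a, Wnt10b and Dkk2, and the edgeR log2 differences were -2.13 ± 0.47, -1.69 ± 0.44, -1.60 ± 0.46 and -2.81 ± 0.66 with adjusted p = 0.34, 0.42, 0.44 and 0.37. Between weeks 8 and 12 of KO tumors edgeR called 0 members and 0% of all genes, with 6 members at an unadjusted p under 0.05 (7.88% of all genes), and DESeq2 called 0 members and 0.342% of all genes.

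Among WT glands, 1 member was higher and 2 were lower at week 12 than at week 6, where 0.35% of all genes were called, in a comparison of 2 mice with 2. At an unadjusted p under 0.05 were 11 members and 8.2% of all genes, and DESeq2 called 7 members, beside 1.87% of all genes. Rspo1 was at 0.272 and 0.401 CPM at week 6, at 0.243 and 1.02 at week 8, at 1.98 and 3.70 at week 10 and at 2.97 and 3.38 at week 12. Both glands of week 12 were above both of week 6 (3.22 ± 0.71, edgeR adjusted p = 0.078). In KO glands Rspo1 lay between 1.69 and 4.58 CPM from week 8 on.

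Wnt10b and Wnt5a were the lower members. Wnt10b was at 4.91 and 17.1 CPM at week 6 and at 1.78 and 2.43 CPM at week 12 (-2.39 ± 0.55, edgeR adjusted p = 0.093), and Wnt5a was at 57.8 and 114 CPM at week 6 and at 23.8 and 27.6 CPM at week 12 (-1.74 ± 0.41, edgeR adjusted p = 0.093). Their groups did not overlap, though on the CPM scale the lower gland of week 6 was nearer to week 12 than to its partner for both genes. All 3 calls were lost without either gland of week 12 or without the second gland of week 6, and that of Rspo1 also without the first gland of week 6. In KO glands 0 members were called between weeks 8 and 12 by edgeR, beside 0.567% of all genes, with 4 at an unadjusted p under 0.05 (9.27% of all genes), and 0 by DESeq2, which called 2.94% of all genes.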

How the data were processed

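Total RNA of sorted GFP+ mammary cells was depleted of rRNA and sequenced from stranded libraries. The authors aligned reads with HISAT to Gencode M16 and GRCm38, took out duplicates by Picard 1.128 and assigned reads to genes by HTSeq, and the strand setting is not given in the sources used here. The deposited count table holds raw counts for 55598 rows, of which 111 spike-in, reporter and transgene rows (0.0778% of reads) were left out. The deposited normalized table holds signal, counts divided by size factors by the authors, whose values became whole for 100% within 0.1 and which served as an alternative with whole reads recovered, although only 76.7% of the members' recovered values equalled the raw counts. All columns were matched to a mouse.

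Counts were tested in R 4.3.3 with edgeR 4.0.16 (TMM, glmQLFit, glmQLFTest) over all 33 libraries and 14 conditions in 16 comparisons, with DESeq2 1.42.0 as an alternative. The SE is the log2 fold change divided by the root of F. Fits without 1 library took the dispersion trend from every 10th gene. Where such a fit left 1 gland of an age, the spread came from the other conditions. Scripts were tested on simulated data. Labels give biological replicates, taken as separate mice. Depth was 28419983 to 130981596 reads, and counting intervals cover counting error only. Starts and lengths came from Gencode M21 on GRCm38 and promoters from RefSeq.

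The members and gene lists were chosen with earlier results of these data known. Named with values were members called in either average of tumor against gland or in a genotype comparison, up to 30 by absolute log2 fold change, and always Wnt4, Rspo1, Axin2, Lgr5, Lef1 and Tcf7. Others were named after their values were seen, among them members called by age, Wnt7a, Wnt7b, Fzd2, Fzd7, Lgr4, Lrp5, Lrp6, Sfrp2, Notum and the pathway genes.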

Additional observations from a re-analysis of the deposited data

Results flagged for a closer look

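The PTHrP WT tumor of week 12, a single mouse that entered no comparison, had 9 members above all 8 WT glands, those of week 12 included, where 17.6% of all genes lay above, so that the number of members is near the background. They were Wnt5b at 112 CPM, Sfrp1 at 30.4 CPM, Lgr4 at 215 CPM, Lgr6 at 164 CPM, Lrp6 at 316 CPM, Fzd9 at 0.767 CPM, Notum at 1.33 CPM, Rspo3 at 0.216 CPM and Lef1 at 0.206 CPM. Against the 9 other WT tumors, Lgr6, Fzd9, Notum and Lef1 were above all of them, and Wnt5b, Sfrp1, Lgr4, Lrp6 and Rspo3 lay within their range. Lgr6 was at 23.0 to 53.6 CPM in those 9 tumors. Of all 52 members in this tumor, 18 were below all WT glands (11.7% of all genes) and 25 within their range. With 1 mouse these values have no replicate check.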

How the results depend on the processing

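Over 11 alternatives to the settings above and the fits that leave out 1 library each, the number of called members in tumors against glands was 20 to 24 (WT) and 16 to 21 (KO) without 1 library, and 19 to 23 and 15 to 19 under the other settings. In the single ages the range without 1 library was 8 to 14 at WT week 6 (8 without the second gland and 11 without the second tumor of that week), 14 to 17 at WT week 8, 10 to 18 at WT week 10, 0 to 8 at KO week 8 (4 without the second KO tumor), 8 to 12 at KO week 10 and 7 to 11 at KO week 12 (7 without the first KO gland of week 12). It was 0 to 0 for the difference of tumor effects, 0 to 2 for tumors at weeks 8 and 10 (1 without the first WT tumor of week 10, 2 without the first KO tumor of week 8), 1 to 3 for stage-matched tumors, 1 to 4 for WT against KO glands (4 without the first KO gland of week 12, 3 without the first gland of week 8 of either genotype, 2 without the first WT gland of week 10), 0 to 2 for WT tumors by age (2 without the third tumor of week 10), 0 to 0 for KO tumors by age, 0 to 2 for WT glands by age and 0 to 2 for KO glands by age (2 without the first gland of week 12).

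Among the settings below, the share of all genes called was counted for DESeq2 alone, so the other counts have no such background. Without a filter on low counts the calls numbered 12 at KO week 8 (7 above), 2 for the difference, 2 for tumors at weeks 8 and 10, 4 for WT against KO glands, 7 for WT tumors by age and 8 for WT glands by age (3 above). With filterByExpr they were 1 for tumors at weeks 8 and 10, 4 for glands and 5 for WT glands by age, and with DESeq2 1, 2, 4, 4 and 7 for the difference, tumors at weeks 8 and 10, glands, WT tumors by age and WT glands by age. With the libraries of the groups compared alone they were 11 at KO week 8, 0 at KO week 12 (11 above) and 1 for tumors at weeks 8 and 10. A fold over 2 with adjusted p under 0.05 gave 0 for stage-matched tumors and 0 for WT glands by age. The rRNA share as a covariate gave 0 for WT against KO glands and 0 for WT glands by age, and leaving out the 4 libraries over 5% rRNA, chosen after seeing the data, gave 3 at KO week 8 and 0 for WT against KO glands. Fewer genes enter the adjustment with filterByExpr, and fewer libraries set the spread when only 2 groups are fitted. Why the counts changed was not tested for any of these settings.

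Same-numbered tumors did not deviate together on average (correlation of deviations -0.73 to 0.46, mean -0.0097, over 45 pairs, with 9 over 0.1). Of 18 tumors, 9 correlated best with 1 of their own number. The number was not taken as a pairing, although these values cannot show that no pair was linked. With a replicate block 19 members were called in each average of tumor against gland, and 1 for WT glands by age. The log2 fold change of Wnt1 in WT mice was between -2.03 and 0.56 without 1 library, reversed without the second WT gland of week 8. Of the other values of the 26 members named by rule, in the averages of tumor against gland, 1281 stayed as they were, called or not called. A call was gained by 15 and lost by 52. Outside those 26, calls were gained in the same averages by Lgr4 (1 setting in WT, 8 in KO mice), Fzd2 (4 and 6), and Wnt16, Dkk1 and Notum (1 each in WT mice). The values of members near 10 reads rest on few counts.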

Other observations

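In the WT tumor of week 12 several members that were lower in the other tumors than in glands had levels below all 9 of those tumors, and others lay above them. Dkk2 was at 0.0983 CPM (0.685 to 19.5 in the other WT tumors), Dkk3 at 3.12 CPM (5.31 to 38.7), Wnt4 at 0.462 CPM (1.2 to 4.83), Wnt10a at 1.23 CPM (2.48 to 9.95) and Wnt10b at 0.256 CPM (0.307 to 2.96). Axin2, at 4.77 CPM (1.72 to 4.45), Wif1, at 3.52 CPM (0.0709 to 2.88), Sfrp4, at 0.0492 CPM from 5 reads (0 to 0.0403), and Lgr6 were above all 9, though they were lower in those 9 than in glands. This tumor also had the lowest basal or myoepithelial marker sum of all libraries, 1006 CPM against 1770 to 3694 CPM in the other WT tumors, and its part in these values was not tested. Over the 52 members, 12 were below all 9 other WT tumors, 10 above and 30 within their range, where 7.74% of all genes lay below and 15.3% above.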
